A study of Mus musculus with 8 samples.

Results

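Keratins are the proteins of the intermediate filaments of epithelial cells, and this account covers the 50 probe sets that the platform annotation gives to 41 keratin genes (symbols Krt followed by a number), out of 45037 probe sets and 17098 named genes measured. A filament is built from a type I and a type II keratin in equal parts, and cells change their pair as they mature. In the epidermis Krt5 and Krt14 mark the basal layer, Krt1 and Krt10 replace them in the layers above, and Krt6a, Krt6b and Krt16 come on in wounded or hyperproliferating skin, which includes skin treated with tumour promoters. The rule that picks the members uses the gene symbol and no measured value. They were grouped by where each keratin is known to be made: basal (4 probe sets, 3 genes), suprabasal (6 probe sets, 6 genes), stress (5 probe sets, 3 genes), simple epithelial (6 probe sets, 5 genes), mucosal and corneal (7 probe sets, 3 genes), hair follicle sheath (7 probe sets, 7 genes), hair shaft (10 probe sets, 10 genes) and other keratins (5 probe sets, 4 genes). A reference list of mouse genes holds 54 keratin genes, and the 13 without a probe set named for them, among them the stress keratin gene Krt17, were not analysed here.

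RNA came from interfollicular epidermis, the epidermis of back skin outside the follicles, and the mice were 15 weeks old per the labels. In 4 samples the genotype was G9a cKO, a conditional knockout of the histone methyltransferase gene Ehmt2, and in 4 it was G9a WT. Both groups had received the carcinogen DMBA (0.25 mg/ml) and the tumour promoter TPA (0.02 mg/ml), 200 µl of each to the shaved back, once a week for 6 weeks from 8 weeks of age. Skin was taken before tumours formed, so every level below belongs to treated skin and no untreated group is compared. The labels do not name the promoter that drives the Cre recombinase. Whether the replicates were different mice is not stated either, so a p-value here reflects the variation among 8 samples, some of which may be technical. Each sample has 1 array, and values are log2 expression per probe set.

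Array medians lay between 5.72 and 5.80 and the highest value on any array between 12.97 and 13.03 (log2). At 1 Ehmt2 probe set (1460692_PM_at) the cKO arrays read 6.30 to 7.07 and the WT arrays 9.25 to 9.77, so the 4 cKO arrays lay below the 4 WT arrays, while the other (1426888_PM_at) did not separate them (8.29 to 8.42 against 8.22 to 8.45). The deleted part of the gene is not given in the labels. On the first principal component, which held 36.9% of the variance, WT 4 stood at 23.5, beyond the cKO arrays (-10.7 to 19.2) and away from WT 1 to 3 (-20.6 to -11.4), and cKO 2 stood at -10.7, away from the other cKO arrays (-0.54 to 19.2). Where leaving out these arrays moved a difference of over 0.1 by more than 1.5 times, among the 31 keratin probe sets refitted without them, the value without them is given. The 7 measured keratinocyte markers had a mean level of 11.87 to 11.97 in cKO and 11.90 to 11.96 in WT. Mean levels of the marker lists were 4.79 to 4.95 and 4.82 to 4.87 for 7 fibroblast genes, 4.90 to 5.05 and 4.795 to 5.005 for 8 immune genes, 5.04 to 5.24 and 5.01 to 5.09 for 6 melanocyte genes, 4.59 to 4.71 and 4.66 to 4.68 for 4 endothelial genes, and 4.80 to 4.88 and 4.77 to 4.85 for 4 skeletal muscle genes. No marker in these lists passed the test. The keratinocyte list holds Krt5 and Krt14.

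The comparison asks which keratins differ when G9a is lost in carcinogen-treated epidermis. Of the 50 keratin probe sets 1 rose in cKO, that of Krt7, a type II keratin of simple and glandular epithelia, by 1.42-fold; 0 fell and 49 did not pass the test (limma over all 45037 probe sets, Benjamini-Hochberg adjusted p under 0.05). Among all probe sets 0.466% passed, 0.393% higher and 0.0733% lower in cKO. At an unadjusted p under 0.05 stood 6 keratin probe sets, 4 higher and 2 lower, which is 12% where all probe sets give 7.98% (5.06% higher and 2.92% lower). The groups did not overlap at 2 keratin probe sets, both higher in cKO, which is 4% where all probe sets give 4.89% (3.17% higher and 1.72% lower). The median log2 fold change was 0.01 over the keratins and 0.0053 over all probe sets. At 33 of the 50 probe sets the log2 fold change was smaller than 0.1 in size. The largest differences were those of Krt6b (-1.01) and Krt2 (-0.86), which did not pass and rest on unequal WT arrays, as described below.

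**Figure D1:**
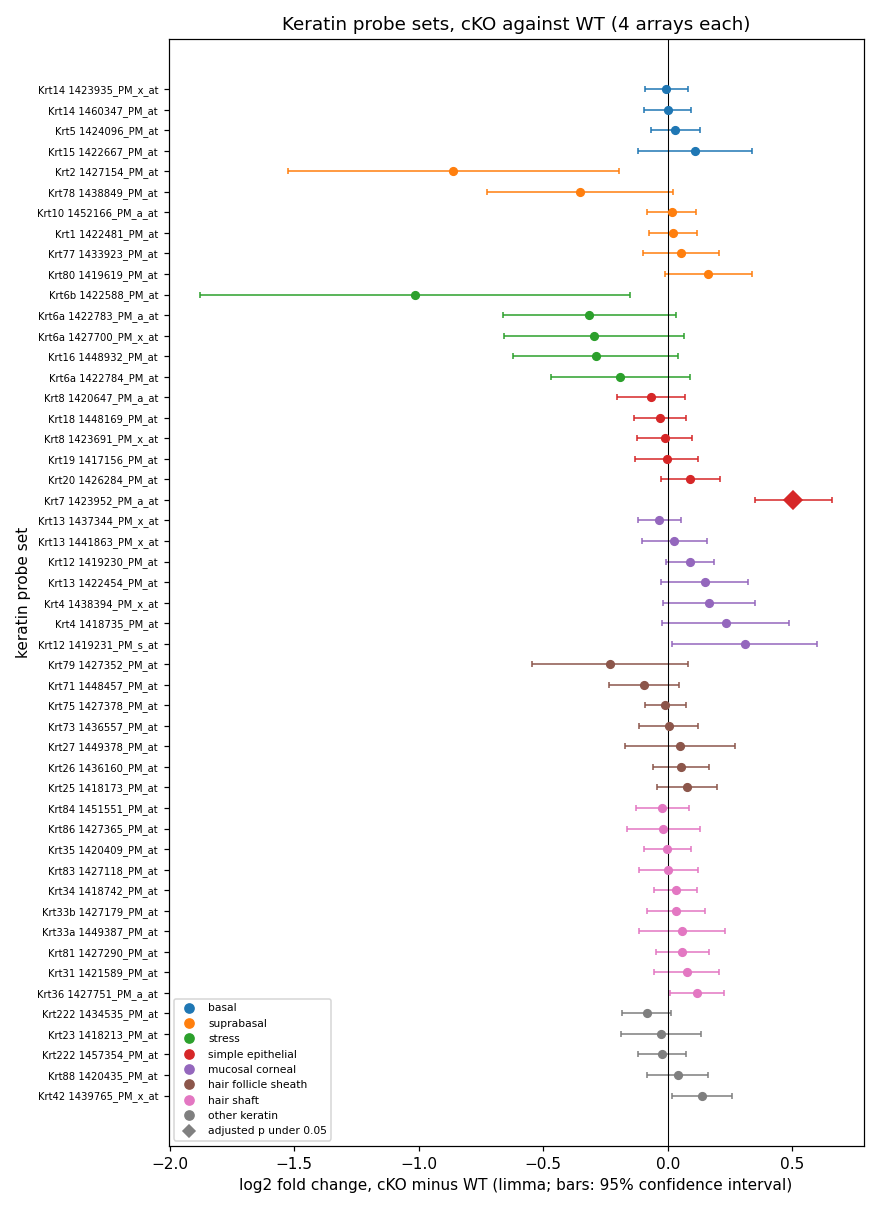
Log2 fold change of each of the 50 keratin probe sets (cKO minus WT, 4 arrays each) with its 95% confidence interval, coloured by role group. Krt7, at 0.50, carries the diamond that marks an adjusted p under 0.05, and Krt6b and Krt2 have the widest intervals.

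The 3 basal keratin genes differed between the groups by 0.11 or less (log2 fold change), and none passed the test. Krt5, the type II keratin of basal cells (1424096_PM_at), read 12.60, 12.60, 12.65 and 12.54 in WT 1 to 4 and 12.62, 12.67, 12.56 and 12.66 in cKO 1 to 4. Its partner Krt14 (1423935_PM_x_at) read 12.86, 12.88, 12.88 and 12.84 in WT 1 to 4 and 12.86, 12.90, 12.83 and 12.83 in cKO 1 to 4. The groups of both genes overlapped throughout. The log2 fold change was 0.03 for Krt5 (SE 0.04, 95% confidence interval -0.07 to 0.13, limma adjusted p = 0.965) and -0.01 for Krt14 (SE 0.04, interval -0.09 to 0.08, adjusted p = 0.996). The second Krt14 probe set (1460347_PM_at) stood at 0.00052 (interval -0.09 to 0.09). Its sign turned when arrays were centred on their medians or weighted, or single arrays were left out, and those of Krt5 and the first Krt14 set turned under some of these settings. Krt5 and Krt14, like Krt1 and Krt10 below, read close to the highest value on the arrays, and whether their probes were near saturation was not tested. Krt15, a type I keratin of basal cells and of hair follicle stem cells (1422667_PM_at), read 11.28, 11.30, 11.13 and 11.60 in WT 1 to 4 and 11.44, 11.26, 11.55 and 11.51 in cKO 1 to 4. WT 4 was the highest of the 8 arrays for Krt15 and WT 3 the lowest. Its log2 fold change was 0.11 (SE 0.10, adjusted p = 0.918), and the value was 0.04 without WT 3, 0.17 without cKO 2, 0.20 without WT 4 and 0.26 without both cKO 2 and WT 4, none of which passed. The basal group had a median log2 fold change of 0.02, and 0 of its 4 probe sets reached an unadjusted p under 0.05.

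Of the 6 suprabasal probe sets 0 passed, 1 (Krt2) reached an unadjusted p under 0.05, and the median log2 fold change was 0.02. Krt1, the type II keratin of differentiating epidermal cells (1422481_PM_at), read 12.54, 12.58, 12.62 and 12.59 in WT 1 to 4 and 12.65, 12.53, 12.63 and 12.60 in cKO 1 to 4. Krt10, its type I partner (1452166_PM_a_at), read 12.22, 12.22, 12.22 and 12.17 in WT 1 to 4 and 12.28, 12.23, 12.14 and 12.25 in cKO 1 to 4. Neither separated the groups: the log2 fold change was 0.02 for Krt1 (SE 0.04, 95% confidence interval -0.08 to 0.12) and 0.02 for Krt10 (SE 0.04, interval -0.08 to 0.12), with limma adjusted p of 0.981 and 0.986. The sign of Krt10 turned with array weights (-0.03) and without single arrays. Krt77, a relative of Krt1, stood at 0.05 (SE 0.07, interval -0.10 to 0.21). Krt80, a keratin of differentiating epithelial cells, stood at 0.16 (SE 0.08, limma adjusted p = 0.667), from 9.57 ± 0.11 in WT to 9.73 ± 0.13 in cKO (log2, mean ± SD, n = 4 each), and at 0.26 without both cKO 2 and WT 4, which did not pass. Krt78 stood at -0.35 (SE 0.17, adjusted p = 0.663), at -0.21 without cKO 2 and at -0.23 without both cKO 2 and WT 4. Its cKO arrays spread from 9.16 to 9.99 and its WT arrays from 9.79 to 10.13.

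Krt2, the type II keratin of the uppermost living layers, is known in mice mainly from ear, tail and footpad skin. Its probe set (1427154_PM_at) read 7.27, 5.74, 6.81 and 7.05 in WT 1 to 4 and 5.70, 5.59, 6.04 and 6.10 in cKO 1 to 4. Of the WT arrays, 1, 3 and 4 lay above every cKO array, whereas WT 2 lay among them. The mean was 6.72 ± 0.68 in WT and 5.86 ± 0.25 in cKO (log2, mean ± SD, n = 4 each). The log2 fold change was -0.86 (SE 0.29, 95% confidence interval -1.53 to -0.20), with a limma adjusted p of 0.436 and an exact permutation p of 0.0857 (two-sided, 4 against 4). Without WT 2 it was -1.19 with an adjusted p of 0.0205, while without cKO 2 and WT 4 it was -0.66 with an adjusted p of 0.410. The WT spread was among the widest on the array, since 31 of 45037 probe sets had a larger SD over the WT arrays.

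Stress keratins had lower means in cKO at each of their 5 probe sets, which belong to 3 genes and are not independent. Of the 5 sets 0 passed and 1, that of Krt6b, reached an unadjusted p under 0.05. The median log2 fold change was -0.30, against -0.19 without WT 3 and -0.48 without both cKO 2 and WT 4. Krt6b, a type II keratin induced in damaged and hyperproliferating epidermis (1422588_PM_at), read 10.20, 11.02, 11.09 and 9.09 in WT 1 to 4 and 9.14, 9.40, 9.37 and 9.43 in cKO 1 to 4. WT 1, 2 and 3 lay above all cKO arrays, and WT 4 was the lowest of the 8. The SD was 0.93 over the WT arrays and 0.13 over the cKO arrays, and 0 of the 45037 probe sets had a larger SD over the WT arrays than Krt6b. The log2 fold change was -1.01 (SE 0.38, 95% confidence interval -1.88 to -0.15), with a limma adjusted p of 0.514 and an exact permutation p of 0.143. Without WT 4 it was -1.43 with an adjusted p of 0.0152, and without both cKO 2 and WT 4 it was -1.46 with an adjusted p of 0.0243. Over all probe sets 356 and 657 passed in these fits, against 210 on all arrays. Leaving out any other single array left the adjusted p between 0.548 and 0.969.

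Krt6a, the near-identical neighbour of Krt6b, read 11.67, 12.02, 12.10 and 11.59 in WT 1 to 4 and 11.77, 11.80, 11.53 and 11.53 in cKO 1 to 4 at the brightest of its 3 probe sets (1422784_PM_at). Krt16, the type I partner of the Krt6 proteins (1448932_PM_at), read 10.54, 10.90, 11.01 and 10.37 in WT 1 to 4 and 10.16, 10.55, 10.54 and 10.42 in cKO 1 to 4. As for Krt6b, WT 2 and WT 3 held the 2 highest values at all 5 stress probe sets, and WT 1 and WT 4 each lay nearer to a cKO array than to WT 2 or WT 3. The log2 fold change was -0.19 for Krt6a at this probe set (SE 0.12, limma adjusted p = 0.823), -0.31 and -0.30 at its others (adjusted p = 0.682 and 0.734), and -0.29 for Krt16 (SE 0.15, adjusted p = 0.701). In this order they were -0.28, -0.40, -0.41 and -0.40 without WT 4, -0.11, -0.21, -0.19 and -0.19 without WT 3, and -0.32, -0.48, -0.48 and -0.45 without both cKO 2 and WT 4, and did not pass in any of these. Because Krt6a and Krt6b transcripts are so alike, and Krt16 resembles Krt14, probes for one may bind the other, and the share of each gene in these values is uncertain.

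**Figure D2:**
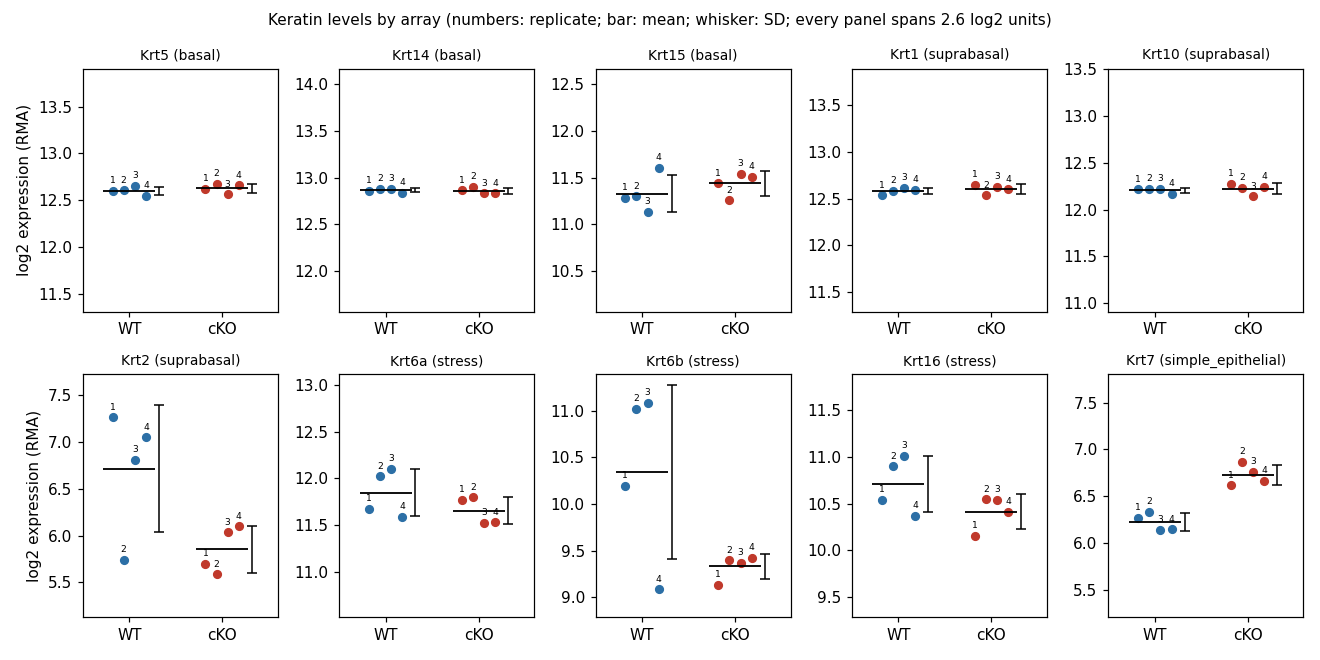
Log2 expression of 10 keratin genes on each array, at the probe set with the highest mean for each gene, with the mean (bar) and SD (whisker) of 4 arrays per group; every panel spans the same range of log2 units. Krt5, Krt14, Krt1 and Krt10 differ by 0.03 or less between the group means, the Krt6b and Krt2 WT arrays are widely spread, and the 4 cKO arrays of Krt7 (6.62 to 6.87) lie above the 4 WT arrays (6.14 to 6.33).

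Keratins of simple epithelia, the single-layered linings of glands and inner organs, included the one call of the family. Krt7 (1423952_PM_a_at) read 6.27, 6.33, 6.14 and 6.14 in WT 1 to 4 and 6.62, 6.87, 6.76 and 6.66 in cKO 1 to 4. All cKO arrays lay above all WT arrays. Krt7 rose from 6.22 ± 0.10 to 6.73 ± 0.11 (log2, mean ± SD, n = 4 each), a log2 fold change of 0.50 (SE 0.07, 95% confidence interval 0.35 to 0.66), with a limma adjusted p of 0.0154 and an exact permutation p of 0.0286, the smallest that 4 against 4 allows. Leaving out single arrays kept the log2 fold change between 0.46 and 0.54, but the adjusted p was 0.0738 without cKO 3, 0.0613 without WT 1 and 0.0682 without WT 3. It was 0.0272 without WT 4 and 0.0305 without both cKO 2 and WT 4. In a bulk sample, more cells that make Krt7 and more Krt7 RNA per cell cannot be told apart. Krt7 has 1 probe set here, and its level was not shown to lie above background in WT. Beside it, mean levels were 6.64 to 6.93 in cKO and 6.61 to 6.93 in WT for 6 measured sebocyte markers, 6.08 to 6.14 and 6.06 to 6.15 for 8 markers of hair shaft and sheath, and 4.40 to 4.42 and 4.36 to 4.46 for 4 Merkel cell markers. The groups overlapped in each of these list means and 0 of the genes passed. The means pool bright and dim genes, such as Scd1 at 9.77 and Elovl3 at 4.19 over the 8 arrays, so they can miss a change in cell share. The part of other cell types in the Krt7 result was not tested. The Merkel cell list holds Krt20.

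Promoter windows from RefSeq (GRCm38.p6) run from 250 bases before to 50 bases after a gene's start and were held for 26 of the 41 genes, in 27 windows. They were searched on both strands for the GC box (GGGCGG, or CCGCCC on the other strand) and the TATA box core (TATAAA, or TTTATA on the other strand), and capitals mark the matches. Krt7 is shown because it was the keratin that passed, Krt10 as an epidermal keratin with a difference near 0, and Krt2 as the largest difference among genes with a window. Their windows are chr15:101412153-101412452 (plus strand), chr11:99389315-99389614 (minus strand) and chr15:101818120-101818419 (minus strand).

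Krt7: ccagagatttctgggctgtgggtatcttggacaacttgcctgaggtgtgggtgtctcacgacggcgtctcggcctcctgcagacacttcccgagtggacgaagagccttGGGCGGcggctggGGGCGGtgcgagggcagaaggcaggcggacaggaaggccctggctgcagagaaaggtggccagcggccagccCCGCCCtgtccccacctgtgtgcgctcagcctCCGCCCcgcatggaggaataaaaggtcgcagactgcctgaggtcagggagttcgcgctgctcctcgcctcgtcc

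Krt10: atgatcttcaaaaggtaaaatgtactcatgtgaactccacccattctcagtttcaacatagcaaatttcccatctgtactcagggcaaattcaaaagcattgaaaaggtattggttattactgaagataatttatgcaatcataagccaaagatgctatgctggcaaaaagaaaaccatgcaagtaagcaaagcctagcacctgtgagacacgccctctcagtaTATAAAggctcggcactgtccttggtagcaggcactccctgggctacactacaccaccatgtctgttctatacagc

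Krt2: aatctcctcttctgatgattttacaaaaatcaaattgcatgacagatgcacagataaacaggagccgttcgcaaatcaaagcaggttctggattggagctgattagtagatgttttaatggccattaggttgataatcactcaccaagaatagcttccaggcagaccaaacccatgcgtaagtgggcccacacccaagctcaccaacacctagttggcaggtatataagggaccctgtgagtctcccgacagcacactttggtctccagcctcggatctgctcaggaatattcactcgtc

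The Krt7 window held 4 GC boxes, which began 141, 128, 56 and 24 bases before the start, and 21 CG dinucleotides, the most of any of the 27 keratin windows (2 to 21, median 5). Of all 32851 windows 5.49% held 4 or more GC boxes, 35.7% held at least 1, and the median number of CG dinucleotides was 7. Apart from Krt7 the keratin window with a GC box was that of Krt75, with 1. The Krt10 window held a TATA box core 26 bases before the start. That of Krt2 held no exact match to either motif. It does hold the letters tatataag, and the Krt7 window holds aataaaag, near matches that the search did not count. A lack of a TATA box is therefore not shown for either gene. The letters TATAAA or TTTATA were found in 14 of 27 keratin windows (51.9%) and in 13.6% of all windows. They were counted at any position, and relative to the start the match of Krt42 began at 19 and that of Krt84 at -206. These shares are therefore not shares of promoters with a TATA box. The motif counts describe the letters of these windows and show no binding.

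Of the other simple epithelial keratins, 5 probe sets of 4 genes, 0 passed. Krt8 and Krt18 form the filaments of simple epithelia, and Krt8 is known to appear in advanced mouse skin carcinomas. Krt8 read 4.74 ± 0.05 in WT and 4.73 ± 0.06 in cKO (log2, mean ± SD, n = 4 each) at its brighter probe set and Krt18 read 4.76 ± 0.05 and 4.73 ± 0.06. The log2 fold change was -0.01 (95% confidence interval -0.12 to 0.10) for Krt8 at this set, -0.07 (-0.20 to 0.07) at its other and -0.03 (-0.14 to 0.07) for Krt18. Krt19, a type I keratin of simple epithelia and of hair follicle stem cells, stood at -0.0036, and Krt20, known from gut epithelium and Merkel cells, at 0.09 (SE 0.05, limma adjusted p = 0.767). Whether these changes differ from that of Krt7 was not tested.

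Keratins of mucosal epithelia and cornea had the highest median log2 fold change of the groups, 0.15, yet 0 of 7 probe sets passed and 1 reached an unadjusted p under 0.05. Of the 7, which belong to 3 genes and are not independent, 6 were higher in cKO. Over the family 28 of 50 were higher, and this share was not computed over all probe sets. Every reading of Krt12 and Krt13 lay below the array medians. Krt12, the type I keratin of the cornea, read 5.29 ± 0.28 in WT and 5.60 ± 0.11 in cKO (log2, mean ± SD, n = 4 each) at 1419231_PM_s_at. The difference there was 0.31 on the log2 scale (SE 0.13, adjusted p = 0.580 in the limma fit). WT 2, at 5.68, lay among the cKO arrays. At 1419230_PM_at it read 4.18, 4.17, 4.08 and 4.09 in WT 1 to 4 and 4.20, 4.21, 4.25 and 4.21 in cKO 1 to 4. The groups of this set did not overlap, but the difference was 0.09 (SE 0.04, adjusted p = 0.672, exact permutation p = 0.0286). Krt4, a type II keratin of mouth and oesophagus, stood at 0.23 (SE 0.11, adjusted p = 0.675) and 0.16 (SE 0.08, adjusted p = 0.692) at its 2 probe sets, the latter at 0.10 without WT 1 and 0.26 without both cKO 2 and WT 4. Krt13, its partner, is known to appear in mouse skin papillomas as they progress. Its 3 probe sets read between 4.59 and 4.92 on all arrays, with log2 fold changes of -0.03, 0.03 and 0.15 that did not pass (adjusted p = 0.944, 0.982 and 0.715).

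Hair keratins can show how much follicle an epidermal preparation holds. Of the 7 probe sets of hair follicle sheath keratins 0 passed at either threshold, with a median log2 fold change of 0.0036, and of the 10 of hair shaft keratins 0 passed and 1 reached an unadjusted p under 0.05, with a median of 0.03. Hair shaft probe sets read between 3.94 and 5.92 on all arrays. Krt79, a keratin of the follicle opening and the sebaceous duct in mice, read 10.68, 10.36, 10.57 and 10.22 in WT 1 to 4 and 10.46, 9.87, 10.37 and 10.21 in cKO 1 to 4. Its groups overlapped (log2 fold change -0.23, SE 0.14, limma adjusted p = 0.787), and without cKO 2, its lowest array, the difference was -0.11. The inner root sheath keratins Krt71 and Krt25 stood at -0.09 (SE 0.06) and 0.08 (SE 0.05). Of the hard keratins, Krt36 stood at 0.12 (SE 0.05, limma adjusted p = 0.557), Krt31 of the hair cortex at 0.08 (SE 0.06) and Krt81 at 0.06 (SE 0.05). Among the remaining keratins, Krt42 stood at 0.14 (SE 0.05, adjusted p = 0.524), Krt222 at -0.08 (SE 0.04) at its brighter probe set and Krt88 at 0.04 (SE 0.05). The name of the Krt42 probe set ends in _x_at, as do some of Krt14, Krt6a, Krt8, Krt13 and Krt4, and such sets may also bind related transcripts.

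Mouse keratin genes lie in 2 clusters, with 20 of the measured genes on chromosome 11 and 21 on chromosome 15, where Krt18 is the type I gene beside the type II genes. Krt7 lies between Krt80 and Krt88 in the order of measured genes on chromosome 15. These neighbours stood at 0.16 (SE 0.08, limma adjusted p = 0.667) and 0.04 (SE 0.05, adjusted p = 0.959) and did not pass, against 0.50 for Krt7. Krt6b and Krt6a are next to each other and Krt5 follows them, at -1.01, -0.19 and 0.03. Krt2 stood at -0.86 and its neighbour Krt1 at 0.02.

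**Figure D3:**
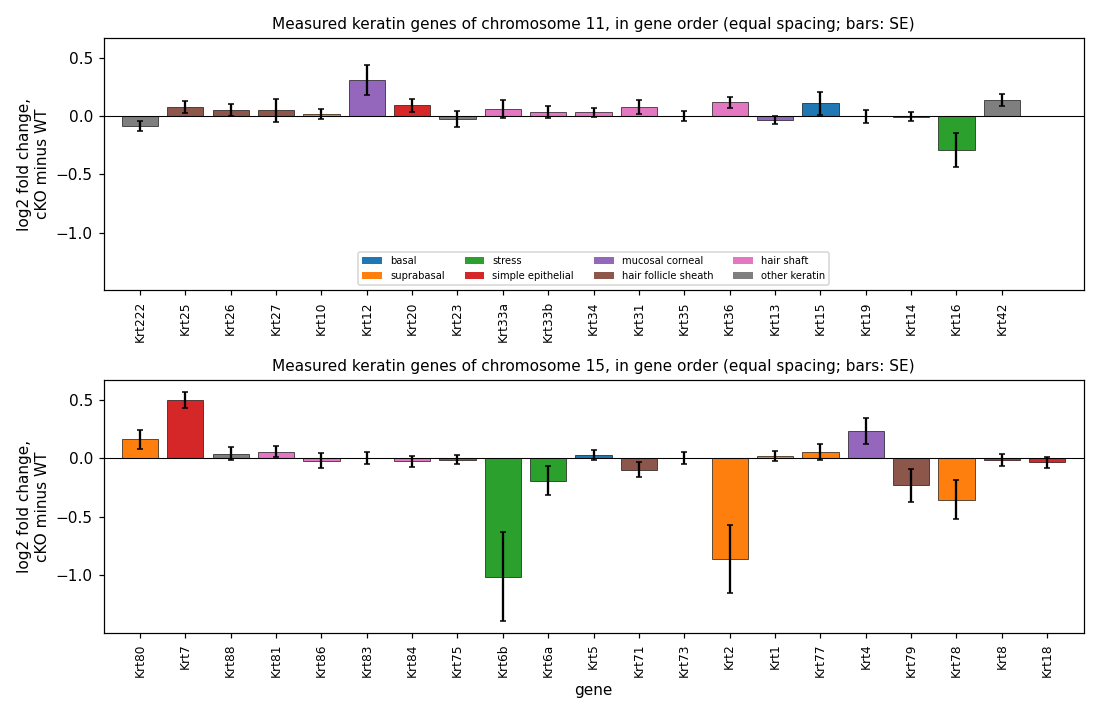
Log2 fold change (cKO minus WT, bars with standard error) of the measured keratin genes of chromosomes 11 and 15 in gene order, at the probe set with the highest mean for each gene, coloured by role group. Krt7 stands alone above its neighbours. Krt6b and Krt2 have the lowest values, and Krt6a beside Krt6b stands at -0.19.

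Keratin partners were compared over the 8 arrays, for 4 pairs with both genes measured. Krt6a and Krt16 had a Pearson r of 0.73 (exact permutation p = 0.0385, adjusted over the 4 pairs 0.154) and a Spearman rho of 0.60 (exact p = 0.132, adjusted p = 0.529). Without the 2 arrays farthest from the median of Krt6a, WT 2 and WT 3, r was -0.24. Leaving out the most extreme arrays narrows the range, which can itself lower r. On deviations from the group means r was 0.64 for this pair. Krt5 and Krt14 had r = 0.56 (exact p = 0.149, adjusted 0.298) and rho = 0.40 (exact p = 0.327, adjusted 0.654). For them r was 0.14 without cKO 2 and WT 4 and 0.65 on deviations from the group means. For Krt1 with Krt10 r was -0.01 (exact p = 0.991, adjusted 0.991) and rho 0.07 (exact p = 0.882, adjusted 0.882), and for Krt8 with Krt18 r was -0.40 (exact p = 0.323, adjusted 0.431) and rho -0.26 (exact p = 0.536, adjusted 0.715). Without their farthest arrays r was 0.22 and 0.11 for these pairs, and on deviations from the group means -0.07 and -0.46. No pair passed after adjustment.

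**Figure D4:**
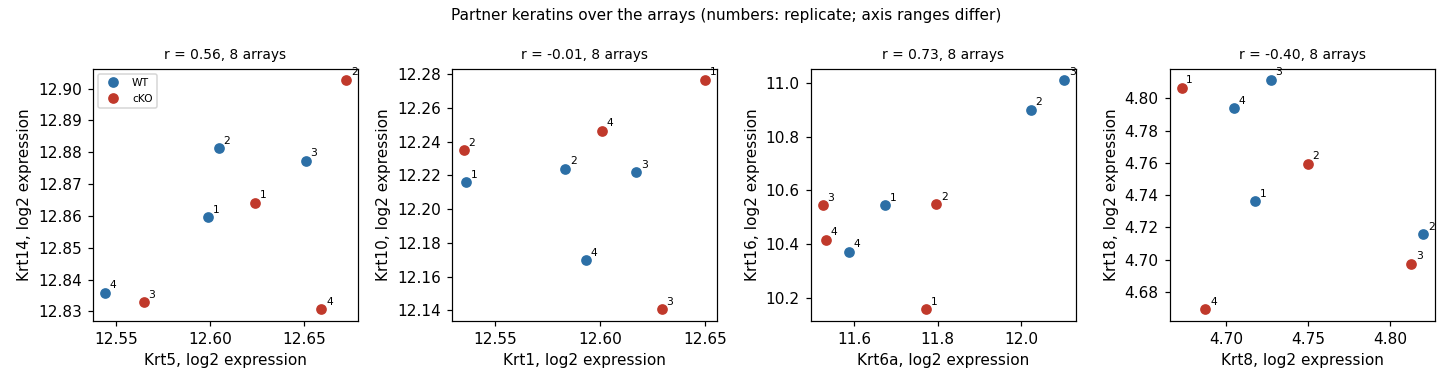
Log2 expression of a type II keratin (horizontal axis) against its type I partner (vertical axis), 1 point per array, with replicate numbers beside the points. Krt6a and Krt16 were both highest in WT 2 and WT 3, and the other pairs show narrow clouds without a clear line.

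Genes that work with keratin filaments were not called either. They were taken from 5 lists, each gene at the probe set with its highest mean. At such a set 0.655% of the 17098 genes of the table passed. An unadjusted p under 0.05 was reached by 7.98% of all probe sets, and this share was not computed per gene. Of 9 measured genes of proteins that tie filaments to junctions 0 passed, with a median log2 fold change of 0.02. Within this list Pkp1, the desmosomal plakophilin of suprabasal cells, stood at 0.08 (SE 0.04, limma adjusted p = 0.728) and Ppl, periplakin, at 0.07 (SE 0.05). Of 5 genes whose products bundle keratins in the granular layer or the hair sheath 0 passed and 2 reached an unadjusted p under 0.05, with a median of -0.17. These were Tchh, trichohyalin, at -0.18 (SE 0.07, adjusted p = 0.522) and Hrnr, hornerin, at -0.17 (SE 0.07), while Flg, filaggrin, stood at -0.31 (SE 0.14, adjusted p = 0.634). Group means of Hrnr (3.75 in cKO, 3.92 in WT) and Flg (4.57 in cKO, 4.88 in WT) lay below the array medians. Of 7 other intermediate filament genes 0 passed (median -0.04), among them Lmnb2, a nuclear lamin, at -0.16 (SE 0.09) and Synm, synemin, at -0.09 (SE 0.06). Of 20 transcription factors known to act on keratin genes 0 passed and 1 reached an unadjusted p under 0.05 (median -0.02), with Msx2, a homeobox gene of the hair matrix, at 0.16 (SE 0.07, adjusted p = 0.650) and Cebpb, a factor of differentiating keratinocytes, at -0.14 (SE 0.05, adjusted p = 0.524). Of 38 keratin-associated protein genes, whose products surround hair keratins, 0 passed and 3 reached an unadjusted p under 0.05 (median 0.02), Krtap11-1 at 0.20 (SE 0.07, adjusted p = 0.436), Krtap4-13 at 0.17 (SE 0.04, adjusted p = 0.159) and Krtap19-4 at 0.11 (SE 0.05, adjusted p = 0.612). Group means of these 3 Krtap genes lay between 4.17 and 4.87, also below the array medians. The median over all 17098 genes was 0.01.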

How the data were processed

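Expression was measured on 8 1-colour arrays, 4 of cKO and 4 of WT epidermis; per the labels' protocols, 25 ng of RNA were amplified in 17 cycles. The deposited values are the authors' log2 expression per probe set; RMA is named in the submitters' processing notes, its version not given in the sources used here. The log base is inferred from the range, and scanner values were not used here to check scale or centring. RMA equalises the distributions of arrays, which hides a shift shared by all genes. Of 45141 rows 104 control probe sets were left out. The platform annotation names 1 gene for 28898 of the 45037 others, several for 551 and none here for 15588; current symbols were found for 28689. Groups came from the titles. limma 3.58.1 in R 4.3.3 (lmFit and eBayes, no low-value filter) was fitted over all 45037 probe sets, two-sided, with Benjamini-Hochberg adjustment; sentences giving an adjusted p without a tool refer to it. Exact tests covered 70 arrangements for 4 against 4 arrays, and all orderings of the 8 arrays for correlations. No 2 arrays were identical. On simulated data with 200 changed probe sets, 74.3% of changes of 0.5 (log2) were recovered, 94.7% of 1 and 100% of 2, with 5.38% false calls. Each share is over all changed probe sets and need not hold for widely spread ones such as Krt6b (WT SD 0.93) and Krt2 (WT SD 0.68). Arrays give no depth, so their number limits precision. Members, lists and tests were chosen with earlier results of these data known. Named are all basal, suprabasal and stress keratins and every keratin past the threshold or with groups not overlapping. Of each other group the 3 largest differences are named, and of each pathway list the 2 largest. Array values are given for Krt5, Krt14, Krt15, Krt1, Krt10, Krt2, Krt6a, Krt6b and Krt16, and for keratins past the threshold or not overlapping. Array values of Krt79, and the values of Hrnr, Krtap19-4, Krt19, Krt8, Krt18, Krt13 and the neighbours of Krt7 where outside this rule, were added after their values were seen. Alternatives were the replicate block, 1 probe set per gene, a filter on dim probe sets, other normalisation, trend, array weights and leaving out arrays. Plots used matplotlib 3.10.9.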

Additional observations from a re-analysis of the deposited data

Results flagged for a closer look

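Krt10 on WT 4 read 12.17 (log2, 1452166_PM_a_at), apart from the other WT arrays at 12.22, so that the gap to its nearest neighbour made up 0.85 of the range of the 4 WT arrays, above Dixon's 95% critical value for 4 values. It was the only one of 62 groups of 4 values examined (31 named keratin probe sets in cKO and in WT) to pass this limit, where chance alone flags about 1 group in 20. The distance is 0.05 log2 units.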

How the results depend on the processing

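The replicate number as a block left the Krt7 call in place (log2 fold change 0.50, adjusted p = 0.0237) and changed no keratin call. Same-numbered arrays did not deviate together (correlation of deviations 0.13, 0.22, -0.62 and 0.37 for numbers 1 to 4; 3 of 8 arrays fitted best with their own number), so the numbers were not taken as pairs. The count of keratin probe sets past the threshold ran from 0 to 1 higher and from 0 to 1 lower when single arrays were left out; the lower one was Krt6b without WT 4 and Krt2 without WT 2. It was 1 lower without both cKO 2 and WT 4 and, at an unadjusted p, 4 higher and 2 lower. Over all probe sets 210 passed on all arrays, 356 without WT 4, 657 without both arrays and 190 without WT 2. Without cKO 3, WT 1 or WT 3, where Krt7 lost the call, 108, 104 and 112 passed. Of 480 values of 31 named probe sets under the alternatives 462 kept their direction and their side of the threshold, 3 lost the call (Krt7), 3 gained it (Krt6b and Krt2) and 12 changed sign. These were Krt14 at its second probe set (-0.0157 with arrays centred, -0.0231 with array weights, -0.0229 without both cKO 2 and WT 4, -0.0173 to 0.0171 without single arrays) and its first (-0.0210 to 0.0031), Krt5 (-0.0102 with array weights, -0.0023 without both arrays) and Krt10 (-0.0254 with array weights, -0.00048 to 0.0448 without single arrays). Group medians were flagged as moved for basal keratins with array weights (-0.0159), for sheath keratins among brighter probe sets (-0.0772), and for simple epithelial keratins among these (0.50, Krt7 alone). They were also flagged for mucosal and corneal keratins (0.23 with 1 probe set per gene, 0.20 among brighter probe sets, 0.19 with array weights, 0.20 without both arrays, 0.11 to 0.21 without single arrays) and for other keratins (0.0076, 0.14, 0.0160, 0.0250 and -0.0329 to 0.0170 in the same order). The flag does not follow the size of a shift alone. The stress median, not flagged, went from -0.30 on all arrays to -0.48 without both cKO 2 and WT 4. Correlations turned without the 2 farthest arrays for Krt6a with Krt16 (-0.24), Krt1 with Krt10 (0.22) and Krt8 with Krt18 (0.11). Where a value changed, the cause was not tested beyond the array or filter named. Low levels were not shown to lie above background.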
